A study of Homo sapiens and Mus musculus with 12 samples.

Results

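Blood and lymphatic endothelial genes were followed in mouse colon through 10 genes of the 17383 in the colon table, chosen by symbol as markers of the cells that line vessels. The 6 blood members were Pecam1, Plvap, Cdh5, Kdr, Tie1 and Vwf, and the 4 lymphatic members were Mmrn1, Lyve1, Ccl21a and Flt4. The RNA came from colon of Zfp280c knock-out C57BL/6J mice and of wild-type C57BL/6J mice, both killed at 12 weeks of age, with 3 libraries each. Zfp280c encodes a zinc finger protein, and the comparison asks which transcripts differ when it is deleted. The labels give neither the allele nor the colon segment nor whether each library is 1 animal, so a p-value measures the spread between these libraries. Levels are FPKM, fragments scaled to transcript length and to library size, so they can be compared between genes. The human RKO cells of the same series were not used here.

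Endothelial cells line blood and lymphatic vessels, and in the gut wall both kinds of vessel run from the muscle coat into the mucosa. Blood endothelium exchanges nutrients and lets leukocytes through, while lymphatic endothelium drains fluid and carries immune cells that follow CCL21 through the receptor CCR7 to lymph nodes. VEGF receptor 2, encoded by Kdr, and VEGF receptor 3, encoded by Flt4, are the main receptors for growth of blood and lymphatic vessels. Pecam1, Cdh5 and Tie1 are used by both kinds of endothelium, Lyve1 also by some tissue macrophages, Vwf also by megakaryocytes, and Ccl21a also by stromal cells of lymphoid tissue.

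The libraries differed in more than genotype. Zfp280c stood at 0.09, 0.09 and 0.22 FPKM in knock-out libraries and at 2.48, 2.25 and 3.17 FPKM in the wild-type libraries, so the labels held for the targeted gene. Hoxb6, a HOX gene of the proximal colon, stood at 18.24, 8.91 and 17.63 FPKM in knock-out libraries and at 0.65, 18.23 and 0.20 FPKM in wild-type replicates 1, 2 and 3. Hoxb13, which marks the distal colon, stood at 2.23, 12.9 and 18.89 FPKM in knock-out libraries and at 336.32, 14.72 and 506.98 FPKM in the wild-type libraries. By these genes wild-type replicate 2 lay with the knock-outs and wild-type replicates 1 and 3 stood apart. The fold changes of the members and the list medians are therefore given with all 6 libraries and without wild-type replicate 2. The epithelial markers of colon were present: 8 of them, Epcam, Vil1 and Krt20 among these, summed to between 11210 and 12470 FPKM in knock-out and between 9864 and 12020 FPKM in wild-type libraries.

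All 10 endothelial genes had lower means in knock-out than in wild-type colon, at 48.7% (Ccl21a) to 69.9% (Flt4) of the wild-type mean, and none passed the test across all genes. Their log2 fold changes were negative too, as were those of 52.4% of the 14743 genes with a mean of at least 0.1 FPKM. The 10 were chosen with earlier results of these data known. In all 10, wild-type replicates 1 and 3 lay above every knock-out, so they are not 10 separate results. Below, a gene passed at a Benjamini-Hochberg adjusted p under 0.05 in limma. The lymphatic genes split the libraries in 1 way and Plvap, a gene of capillary and venous blood endothelium, in another. All 4 lymphatic genes were highest in wild-type replicates 1 and 3 and lowest of all in wild-type replicate 2. Every blood member but Plvap was also highest in wild-type replicates 1 and 3. Among the members, only the lowest place of wild-type replicate 2 was particular to the lymphatic genes. Plvap was highest in wild-type replicate 2.

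Levels were low for 9 of the 10 genes. Averaged over the 6 libraries, the order of FPKM was Ccl21a (19.0), Lyve1 (3.89), Pecam1 (1.88), Mmrn1 (1.85), Plvap (1.11), Flt4 (0.490), Tie1 (0.462), Kdr (0.358), Cdh5 (0.355) and Vwf (0.198). Ccl21a lay above the other genes in every library. The neighbours Pecam1 and Mmrn1, Flt4 and Tie1, and Kdr and Cdh5 could not be ordered, since each pair overlapped over most of its range. Pecam1, Plvap, Mmrn1, Lyve1 and Ccl21a reached the minimum mean of 1 FPKM over all libraries and were tested in the main fit. The other 5 were tested only with the minimum lowered to 0.1 FPKM, and their fold changes on the log2(FPKM + 1) scale understate the ratio of their levels.

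**Figure D1:**
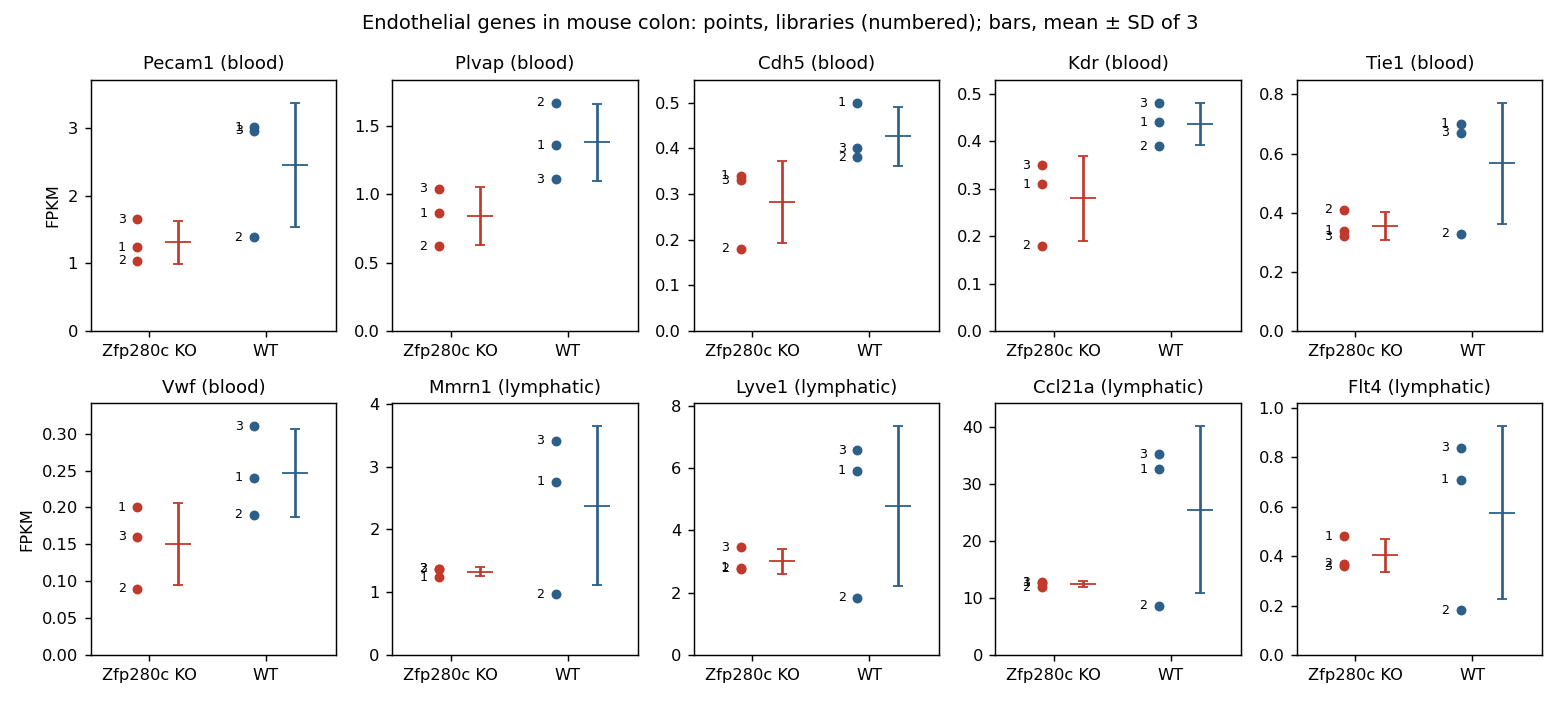
FPKM of the 10 endothelial genes, 1 panel each, in 3 Zfp280c knock-out (KO, red) and 3 wild-type (WT, blue) colon libraries; points are libraries numbered by replicate, bars the mean ± SD, and each vertical axis starts at 0. Wild-type replicates 1 and 3 lie above every knock-out library in all 10 panels, while wild-type replicate 2 is the lowest point for Mmrn1, Lyve1, Ccl21a and Flt4 and the highest for Plvap.

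Among the receptors and junction genes of blood vessels, Pecam1, which encodes the adhesion molecule CD31 at endothelial contacts, stood at 1.24, 1.04 and 1.65 FPKM in the knock-outs and at 3.01, 1.39 and 2.96 FPKM in wild-type libraries. The groups overlapped, because wild-type replicate 2 lay inside the range of the knock-outs. Its mean was 1.31 ± 0.311 FPKM in knock-out and 2.45 ± 0.921 FPKM in wild-type colon (SD, n = 3 each). The log2 fold change was -0.55 ± 0.23 (SE; adjusted p = 0.396, limma).

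Cdh5 encodes VE-cadherin, the cadherin of endothelial adherens junctions. It stood at 0.34, 0.18 and 0.33 FPKM in knock-out libraries, against 0.50, 0.38 and 0.40 FPKM in wild-type libraries. All knock-out values lay below all wild-type values, but the gap between 0.34 FPKM in knock-out replicate 1 and 0.38 FPKM in wild-type replicate 2 was smaller than the SD within either group. The mean was 0.283 ± 0.0896 FPKM in knock-out and 0.427 ± 0.0643 FPKM in wild-type colon, and the log2 fold change was -0.15 ± 0.08 (adjusted p = 0.457, limma, minimum mean 0.1).

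Kdr, the main receptor for VEGFA on blood endothelium, stood at 0.31, 0.18 and 0.35 FPKM in knock-out libraries and at 0.44, 0.39 and 0.48 FPKM in wild-type libraries. The groups did not overlap, and knock-out replicate 2 was the lowest library, as it was for 5 of the 6 blood genes. The mean was 0.280 ± 0.0889 FPKM in knock-out and 0.437 ± 0.0451 FPKM in wild-type colon, and the log2 fold change was -0.17 ± 0.08 (adjusted p = 0.429, limma, minimum mean 0.1).

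Tie1, an endothelial receptor kinase that works with the angiopoietin receptor TEK, stood at 0.34, 0.41 and 0.32 FPKM in knock-out libraries and at 0.70, 0.33 and 0.67 FPKM in wild-type libraries. Wild-type replicate 2 lay within the knock-out range, as for Pecam1. The log2 fold change was -0.20 ± 0.11 (adjusted p = 0.472, limma, minimum mean 0.1).

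Of the secreted and membrane products more typical of blood vessels, Plvap encodes the protein of the diaphragms that span endothelial fenestrae and caveolae. It stood at 0.86, 0.62 and 1.04 FPKM in knock-out libraries and at 1.36, 1.67 and 1.11 FPKM in wild-type libraries. The groups did not overlap, though knock-out replicate 3 and wild-type replicate 3 were close. The mean was 0.840 ± 0.211 FPKM in knock-out and 1.38 ± 0.281 FPKM in wild-type colon, and the log2 fold change was -0.37 ± 0.15 (adjusted p = 0.396, limma). Plvap was the only 1 of the 5 genes in the main fit with an unadjusted p under 0.05 (0.0440).

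Vwf encodes von Willebrand factor, the platelet-binding protein stored in endothelial granules. It was the lowest member, at 0.20, 0.09 and 0.16 FPKM in knock-out libraries and 0.24, 0.19 and 0.31 FPKM in wild-type libraries. Its groups overlapped between knock-out replicate 1 and wild-type replicate 2. The log2 fold change was -0.12 ± 0.07 (adjusted p = 0.504, limma, minimum mean 0.1).

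Plvap, Cdh5 and Kdr were thus the 3 of 10 members whose groups did not overlap, each with an exact two-sided permutation p of 0.1, the smallest that 3 against 3 allows. Among all 14743 genes with a mean of at least 0.1 FPKM, 8.67% lay lower in every knock-out than in every wild-type library. In the main fit 0 of the 5 tested members and 0% of 11366 genes passed in either direction. At an unadjusted p under 0.05, 1 of the 5 members and 6.48% of genes were lower. With the minimum at 0.1 FPKM, 0 of 10 members and 0% of genes passed, while 2 of 10, Plvap and Pecam1, and 5.86% of genes were lower at an unadjusted p under 0.05. Less endothelial RNA in bulk tissue may stand for fewer cells or for less RNA per cell, and these cannot be told apart.

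Ccl21a, which encodes the chemokine that lymphatic vessels use to attract CCR7-bearing cells, was the most abundant lymphatic gene. It stood at 12.73, 11.85 and 12.68 FPKM in knock-out libraries and at 32.59, 8.67 and 35.26 FPKM in wild-type libraries. The knock-outs were nearly equal, while the wild-types lay on both sides of them. The mean was 12.4 ± 0.494 FPKM in knock-out and 25.5 ± 14.6 FPKM in wild-type colon, and the log2 fold change was -0.76 ± 0.49 (adjusted p = 0.499, limma). Ccl21a has near-identical copies, so its share of their reads is uncertain. The copy Ccl21c was listed at 0, 0 and 1.32 FPKM in knock-out libraries and at 0, 0 and 1.32 FPKM in wild-type libraries, well below Ccl21a in each library. The entry Gm21541 was listed at the same values as Ccl21c in every library.

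Lyve1, a hyaluronan receptor of lymphatic capillaries, stood at 2.80, 2.76 and 3.46 FPKM in knock-out libraries and at 5.91, 1.84 and 6.58 FPKM in wild-type libraries. The order of libraries was again wild-type replicates 3 and 1, then the knock-outs, then wild-type replicate 2. The mean was 3.01 ± 0.393 FPKM in knock-out and 4.78 ± 2.57 FPKM in wild-type colon, and the log2 fold change was -0.41 ± 0.37 (adjusted p = 0.624, limma).

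Mmrn1 encodes multimerin 1, a secreted protein of lymphatic endothelium and platelets. It stood at 1.24, 1.37 and 1.37 FPKM in knock-out libraries and at 2.76, 0.97 and 3.41 FPKM in wild-type libraries. The spread between wild-types was wider than the difference between the groups. The mean was 1.33 ± 0.0751 FPKM in knock-out and 2.38 ± 1.26 FPKM in wild-type colon, and the log2 fold change was -0.46 ± 0.29 (adjusted p = 0.50, limma).

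Flt4, the receptor for VEGFC and VEGFD, stood at 0.48, 0.37 and 0.36 FPKM in knock-out libraries and at 0.71, 0.18 and 0.84 FPKM in wild-type libraries. It had the widest range of the 10 genes, with the highest library 4.67 times the lowest. The log2 fold change was -0.14 ± 0.17 (adjusted p = 0.723, limma, minimum mean 0.1).

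Blood and lymphatic members parted in wild-type replicate 2. There the lymphatic genes were at 23.2% (Flt4) to 31.4% (Mmrn1) of the mean of wild-type replicates 1 and 3. The 3 genes that both kinds of vessel use differed among themselves, with Pecam1 at 46.6%, Tie1 at 48.2% and Cdh5 at 84.4%. Vwf was at 69.1%, Kdr at 84.8% and Plvap at 135%. Each gene's level was then divided by its own mean over the 6 libraries and averaged within each set. The 4 lymphatic genes averaged 0.760, 0.707 and 0.758 in knock-out libraries and 1.54, 0.455 and 1.78 in wild-type libraries. The 6 blood genes averaged 0.834, 0.577 and 0.870 in knock-out libraries and 1.36, 1.01 and 1.34 in wild-type libraries. The lowest library was thus knock-out replicate 2 for the blood set and wild-type replicate 2 for the lymphatic set.

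Within the lymphatic set the genes moved together, though not in fixed proportions. The ratio of Ccl21a to Lyve1 was 4.55, 4.29 and 3.66 in knock-out libraries and 5.51, 4.71 and 5.36 in wild-type libraries. It was lower in every knock-out than in every wild-type library. The gap from 4.55 to 4.71 was smaller than the SD within the knock-out (0.454) or wild-type (0.426) group. This was 1 of several ratios computed, not all shown, and none was tested. Mmrn1 over Lyve1 was 0.443, 0.496 and 0.396 in knock-out libraries and 0.467, 0.527 and 0.518 in wild-type libraries, while Lyve1 itself ranged 3.58-fold. Flt4 over Lyve1 was 0.171, 0.134 and 0.104 in knock-out libraries and 0.120, 0.0978 and 0.128 in wild-type libraries. Ratios of a lymphatic to a blood gene depended on the blood gene. Lyve1 over Pecam1 was 2.26, 2.65 and 2.10 in knock-out libraries and 1.96, 1.32 and 2.22 in wild-type libraries. Ccl21a over Plvap was 14.8, 19.1 and 12.2 in knock-out libraries and 24.0, 5.19 and 31.8 in wild-type libraries. Plvap over Pecam1 was 0.694, 0.596 and 0.630 in knock-out libraries, against 0.452, 1.20 and 0.375 in wild-type libraries. In the ratios of Ccl21a to Plvap and of Plvap to Pecam1 all knock-outs lay between wild-type replicate 2 on one side and wild-type replicates 1 and 3 on the other.

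**Figure D2:**
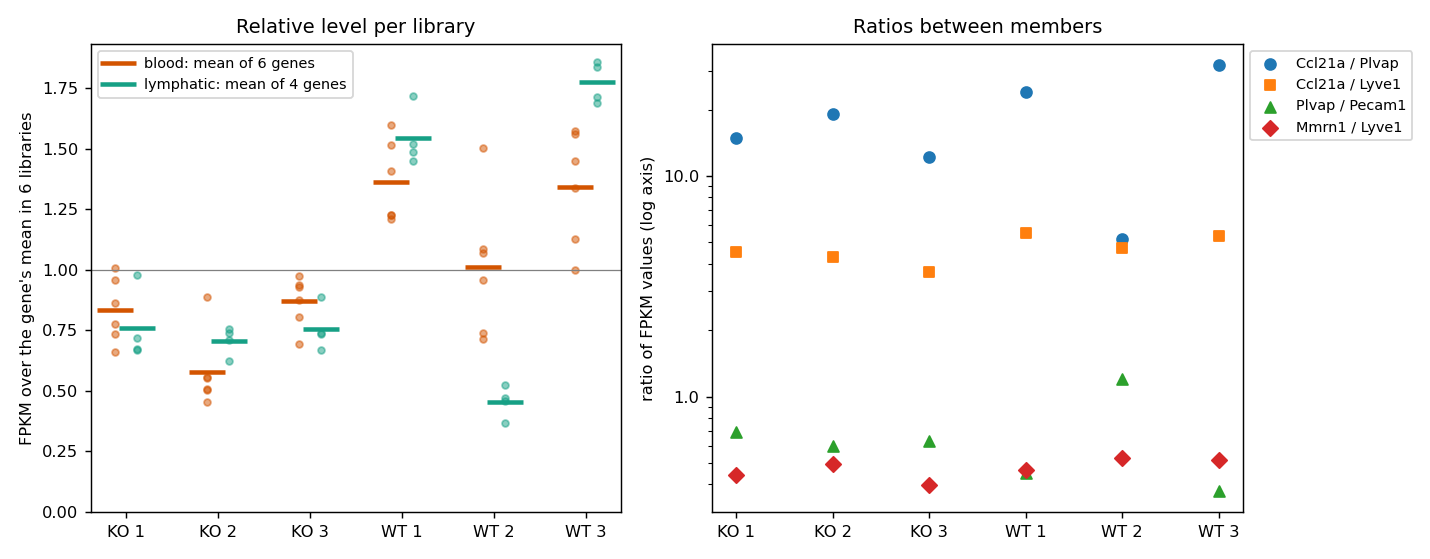
Left, level of each member over its own mean in the 6 libraries (points) with the mean of the 6 blood (orange) and 4 lymphatic (green) genes (bars), by library (KO, Zfp280c knock-out; WT, wild-type). Right, ratios of FPKM between members on a log axis. In wild-type replicate 2 the lymphatic mean is 0.455 and the blood mean 1.01, and Mmrn1 over Lyve1 stays between 0.396 and 0.527 in all 6 libraries while Ccl21a over Plvap runs from 5.19 to 31.8.

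As a summary, the mean of log2(FPKM + 1) over the 6 blood genes was 0.571 ± 0.0913 in knock-out and 0.830 ± 0.103 in wild-type colon (SD, n = 3 each), a difference of -0.26. Over the 4 lymphatic genes it was 1.86 ± 0.0409 in knock-out and 2.31 ± 0.702 in wild-type colon, a difference of -0.44. The blood minus lymphatic value was -1.27, -1.35 and -1.26 in knock-out libraries and -1.73, -0.786 and -1.91 in wild-type libraries. The difference of its means, 0.18, was smaller than the wild-type SD of 0.603. It turned to -0.04 with a pseudocount of 0.1 and to -0.03 without wild-type replicate 3, so no direction can be given for blood against lymphatic genes between the genotypes. The members were chosen with results known, and no test was made of these summaries.

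Without wild-type replicate 2, 816 of 11344 genes (7.19%) fell and 1045 (9.21%) rose in knock-out colon, and all 4 members then tested fell. Plvap was not tested there, because its mean dropped under 1 FPKM without wild-type replicate 2, its highest library. In this comparison every knock-out also had higher proximal HOX levels and less of the distal gene Hoxb13 than both wild-types. Hoxb13 stood at 2.23 to 18.89 FPKM in knock-out and at 336.32 and 506.98 FPKM in wild-type libraries, so genotype and position cannot be told apart in these calls. With the minimum also at 0.1 FPKM, 4 of 10 members fell, as did 6% of 14738 genes, while 7.8% rose. The 4 were 3 of the 4 lymphatic genes and 1 of the 6 blood genes. Ccl21a fell by 1.38 ± 0.09 on the log2 scale (adjusted p = 0.00145, limma), Lyve1 by 0.86 ± 0.14 (adjusted p = 0.0114), Mmrn1 by 0.81 ± 0.12 (adjusted p = 0.0106) and Pecam1 by 0.80 ± 0.14 (adjusted p = 0.0168). Tie1 (-0.31, adjusted p = 0.0520) and Flt4 (-0.34, adjusted p = 0.0552) missed the threshold. Plvap (-0.28, adjusted p = 0.210), Kdr (-0.19, adjusted p = 0.219), Cdh5 (-0.18, adjusted p = 0.266) and Vwf (-0.15, adjusted p = 0.272) did not pass. All 10 members lay lower in every knock-out library than in wild-type replicates 1 and 3, as did 22.6% of the 14743 genes with a mean of at least 0.1 FPKM.

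A score of colon position, set as proximal HOX genes (Hoxb6, Hoxb7, Hoxb8) minus distal ones (Hoxb13 and 4 Hoxd genes) in mean log2 level, was 3.08, 1.92 and 2.39 in knock-out libraries. It was -1.60, 2.52 and -4.04 in wild-type libraries. With this score as a covariate 0 of 10 members and 0% of genes passed in limma. The fitted log2 fold changes then had opposite signs in the 2 sets. All 6 blood genes stayed negative, led by Plvap at -0.56 ± 0.14 (unadjusted p = 0.00603, adjusted p = 0.999, limma). The others were Pecam1 at -0.16 ± 0.20, Cdh5 at -0.15 ± 0.11, Kdr at -0.13 ± 0.11, Vwf at -0.06 ± 0.09 and Tie1 at -0.01 ± 0.11. With the covariate and a minimum of 1 FPKM, 60.4% of 11366 genes were negative. All 4 lymphatic genes turned positive, with Lyve1 at 0.36 ± 0.22, Ccl21a at 0.27 ± 0.26, Flt4 at 0.19 ± 0.12 and Mmrn1 at 0.17 ± 0.14. Apart from Plvap, no member had an unadjusted p under 0.05 in this fit, so the contrast of signs is not established. At a minimum of 1 FPKM, 418 of 11366 genes had an unadjusted p under 0.05 with the covariate, in either direction (limma). The 2 wild-type libraries with low scores stood apart from all others, so this fit sets the knock-outs largely against wild-type replicate 2 alone.

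**Figure D3:**
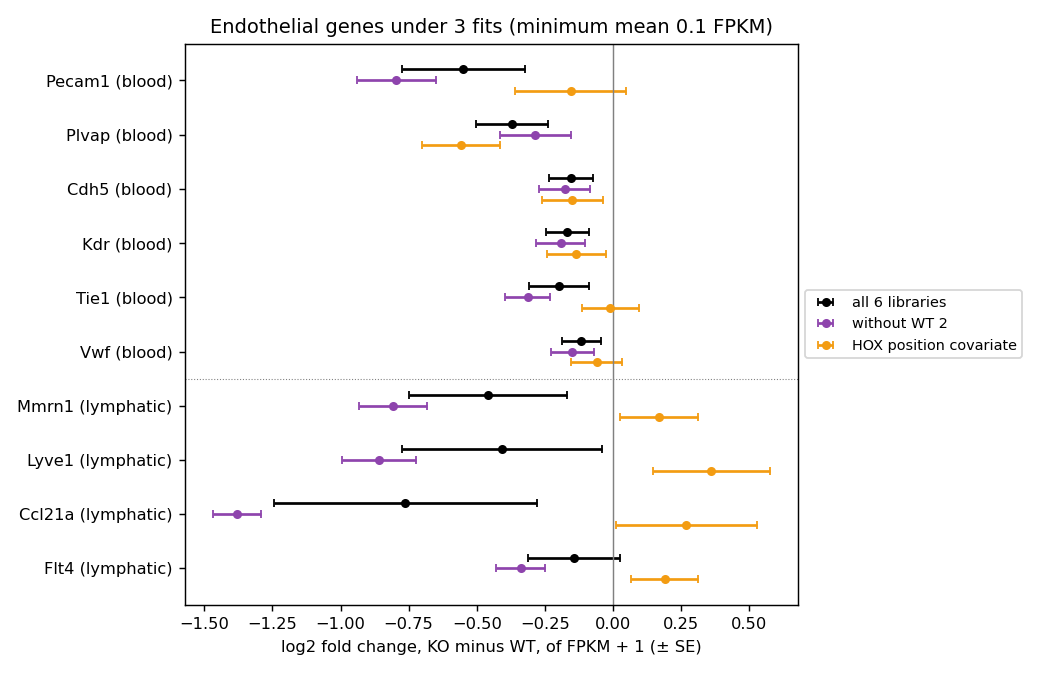
Log2 fold change (knock-out minus wild-type, log2 of FPKM + 1, ± SE) of the 10 members in 3 limma fits of genes with a mean of at least 0.1 FPKM: all 6 libraries (black), without wild-type replicate 2 (purple) and with the HOX position score as a covariate (orange). Blood genes, above the dotted line, are negative in all 3 fits; the lymphatic genes are negative in the first and second and positive with the covariate.

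Other genes of the vessel programme gave a mixed picture, and 0 of them passed with all libraries. Of 18 other genes shared by endothelial cells, 5 were tested and all 5 had negative log2 fold changes. So did 55.4% of the 11366 genes in the main fit, which is the background for the counts of negative genes below. The median was -0.16, against -0.02 over all genes tested. Without wild-type replicate 2 the medians were -0.31 and -0.02. Ecscr, which encodes an endothelial surface protein, stood at 2.65, 2.02 and 2.32 FPKM in knock-out libraries and at 4.55, 3.60 and 3.39 FPKM in wild-type libraries. Its groups did not overlap (log2 fold change -0.54, adjusted p = 0.396, limma), and it missed the threshold without wild-type replicate 2 (-0.57, adjusted p = 0.0506). The log2 fold change of Clec14a was -0.18 and that of Egfl7 -0.16.

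Of 21 other blood endothelial genes, 5 were tested and 4 were negative (median -0.05, and -0.02 without wild-type replicate 2). The log2 fold changes were -0.23 for Insr, -0.27 for Rgcc and 0.12 for Unc5b. Their summed level, from 93.0 to 103 FPKM in knock-out and from 94.8 to 106 FPKM in wild-type libraries, came mostly from Efnb2, Unc5b, Insr and Ephb4, genes that other cells of the colon use too. Typical blood vessel genes were low: Flt1, VEGF receptor 1, stood at 0.05 to 0.12 FPKM in knock-out libraries and 0.05 to 0.21 FPKM in wild-type libraries. Sele was listed at 0 in 5 of the 6 libraries.

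Of 16 other lymphatic genes, 7 were tested and 3 were negative (median 0.11, and 0.26 without wild-type replicate 2). Prox1, the transcription factor that sets lymphatic identity, stood at 0.12, 0.13 and 0.17 FPKM in knock-out libraries and at 0.17, 0.17 and 0.06 FPKM in wild-type libraries, an order unlike that of the 4 members. Pdpn, podoplanin, stood at 2.09, 2.22 and 2.0 FPKM in knock-out libraries and at 2.30, 2.0 and 2.20 FPKM in wild-type libraries, with no difference beyond that spread. Reln, reelin, followed the members, at 0.26, 0.26 and 0.27 FPKM in knock-out libraries and 0.46, 0.20 and 0.53 FPKM in wild-type libraries. Prox1, Pdpn and Reln were named after their values were seen. Among the tested genes the log2 fold changes of lowest p were -0.30 for Clca3a1, 0.39 for Gja1 and 0.28 for Fxyd6. Gja1, the gap junction gene that many cell types use, rose without wild-type replicate 2 (log2 fold change 0.57, adjusted p = 0.0281).

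The ligands of these receptors did not pass either. Among VEGF ligands and receptors 5 of the genes were tested and 1 was negative (median 0.11, and 0.24 without wild-type replicate 2). Vegfa, the ligand of Kdr, stood at 30.80, 27.10 and 31.23 FPKM in knock-out libraries and at 31.17, 30.73 and 20.01 FPKM in wild-type libraries. Vegfc, a ligand gene of Flt4, stood at 1.34, 1.12 and 0.98 FPKM in knock-out libraries and at 1.93, 1.02 and 1.75 FPKM in wild-type libraries, so it was highest in the same wild-type replicates as Flt4 (log2 fold change -0.24, adjusted p = 0.541, and without wild-type replicate 2 -0.41, adjusted p = 0.0938, limma). Figf, which encodes VEGFD, did not follow Flt4, at 0.24, 0.37 and 0.17 FPKM in knock-out libraries and 0.24, 0.23 and 0.17 FPKM in wild-type libraries. Nrp2, of the same list, was highest in wild-type replicate 2 (6.36 FPKM), where Flt4 was lowest. The log2 fold change was 0.19 for Vegfb and 0.10 for Nrp1, and without wild-type replicate 2 it was 0.42 for Vegfb (adjusted p = 0.120) and 0.15 for Nrp1. Of the angiopoietin and TIE genes 0 reached the minimum mean. Of the junction and adhesion genes 7 were tested and 5 were negative (median -0.07, and -0.12 without wild-type replicate 2). Of these Ocln, occludin, a tight junction gene of epithelium too, fell without wild-type replicate 2 (-0.54, adjusted p = 0.0161), where Pecam1 was the other gene of that list to fall. Of the vascular Notch genes 4 were tested and 2 were negative (median 0.12, and 0.24 without wild-type replicate 2). Of these Hes1 (0.47, adjusted p = 0.0152) and Jag1 (0.48, adjusted p = 0.0372) rose without wild-type replicate 2. Of the CCR7 axis 2 were tested: Ccl21a, and the scavenging receptor gene Ackr4, whose log2 fold change was 0.26 (adjusted p = 0.446).

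Markers of other cells moved across the same libraries. For Ccl21a the relevant list is lymphoid follicles, whose 10 markers summed to 9.75, 5.88 and 21.98 FPKM in knock-out libraries and 44.7, 11.4 and 20.9 FPKM in wild-type libraries. All 5 tested were negative (median -0.70, and -1.16 without wild-type replicate 2), and Cd79b fell without wild-type replicate 2 (-1.26, adjusted p = 0.0416). Wild-type replicate 1 had the highest sum and knock-out replicate 2 the lowest. For Lyve1 the relevant list is macrophages, whose 9 markers summed to 23.2, 20.1 and 34.6 FPKM in knock-out and 45.6, 25.7 and 37.3 FPKM in wild-type libraries. All 6 tested were negative (median -0.36, and -0.52 without wild-type replicate 2) and 0 passed without wild-type replicate 2. For Vwf and Mmrn1 the platelet markers summed to between 6.19 and 6.67 FPKM in knock-out and between 6.33 and 9.83 FPKM in wild-type libraries. Of these, Gp9, Ppbp and Treml1 were at or near 0 in every library, while Pf4 fell (-0.97, adjusted p = 0.0404) and Gp1bb rose (0.94, adjusted p = 0.0144) without wild-type replicate 2. The part of these cells in the results was not tested.

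The pericyte, adipocyte and smooth muscle sums were lowest in wild-type replicates 1 and 3, where the lymphatic genes were highest. Pericytes wrap small blood vessels, and their 9 markers summed to 43.0, 37.7 and 33.1 FPKM in knock-out libraries and 15.1, 34.0 and 12.4 FPKM in wild-type libraries. Rgs5, which made up most of that sum and is also used by smooth muscle, stood at 33.63, 29.36 and 25.25 FPKM in knock-out libraries and at 9.65, 26.60 and 7.02 FPKM in wild-type libraries. Without wild-type replicate 2, Rgs5 (1.71, adjusted p = 0.00266) and Kcnj8 (0.80, adjusted p = 0.0128) rose, while the pericyte receptor gene Pdgfrb, at 2.02, 1.83 and 2.43 FPKM in knock-out libraries and 2.27, 2.78 and 2.14 FPKM in wild-type libraries, did not pass (log2 fold change -0.06) and Higd1b was listed at 0 in 5 of the 6 libraries. The 9 adipocyte markers summed to 163, 98.5 and 181 FPKM in knock-out and 66.0, 95.3 and 64.4 FPKM in wild-type libraries, with a median log2 fold change of 2.01 over the 6 tested (2.47 without wild-type replicate 2). Of that sum Pck1, which epithelium also uses, made up 55.73, 39.76 and 48.66 FPKM in knock-out libraries and 54.27, 54.67 and 56.21 FPKM in wild-type libraries, with a log2 fold change of -0.21. The 8 smooth muscle markers summed to 629, 758 and 476 FPKM in knock-out libraries and to 366, 594 and 415 FPKM in wild-type libraries. The 7 fibroblast markers summed to between 86.2 and 116 FPKM in knock-out and between 89.2 and 102 FPKM in wild-type libraries. The 5 red cell genes summed to between 8.39 and 14.6 FPKM in knock-out and between 4.52 and 10.6 FPKM in wild-type libraries. The mesothelial sum, 3023 to 3259 FPKM in knock-out and 2906 to 3413 FPKM in wild-type libraries, is mostly Krt19, which epithelium expresses. Without wild-type replicate 2, 5 adipocyte, 4 smooth muscle, 1 mesothelial, 2 epithelial and 0 fibroblast or red cell genes rose, and 0 genes of these lists fell. The part of muscle, fat and epithelium in the endothelial values was not tested.

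**Figure D4:**
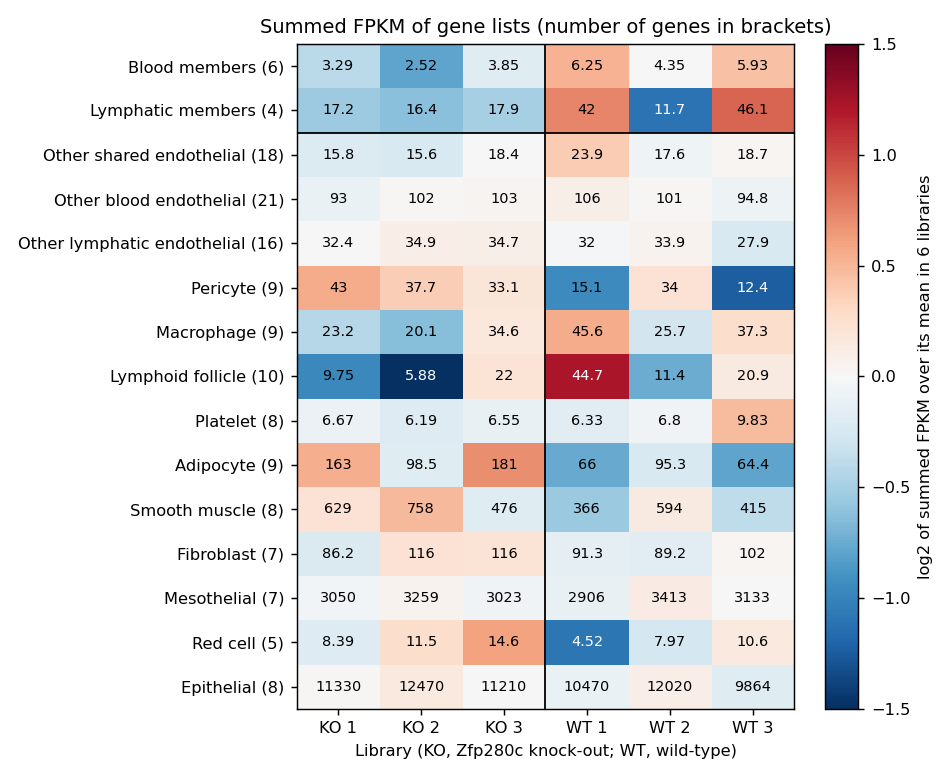
Summed FPKM of the blood and lymphatic members and of 13 marker lists (rows, number of genes in brackets) in each library (columns; KO, Zfp280c knock-out; WT, wild-type); colour is the log2 of each sum over its mean in the 6 libraries. The lymphatic members sum to 17.2, 16.4 and 17.9 FPKM in knock-out and to 42.0, 11.7 and 46.1 FPKM in wild-type libraries, and the pericyte sum is lowest in wild-type replicates 1 and 3.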

How the data were processed

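The 6 mouse colon libraries were analysed from 1 table of FPKM values that the authors deposited, printed to 2 decimals per the file headers and values, with symbols and Entrez gene numbers. Polyadenylated RNA was selected and primed with random hexamers, per the labels' protocols. Tools named by the submitters' processing notes, with no version or role, are HTSeq, edgeR, HISAT and Bowtie2, and the only build is hg19; a mouse build is not given in the sources used here. Read depth is unknown, so no counting interval can be given; library sums were 491900.5 to 507206.3 FPKM. Values were taken as log2(FPKM + 1), genes with a mean of at least 1 FPKM were kept, and knock-out was compared with wild-type in limma 3.58.1 (R 4.3.3, variance trend, no covariate), with Benjamini-Hochberg adjustment over all genes tested. The procedure was tested on simulated data with independent noise of the same spread for every gene. These lack the split between the wild-type libraries, so the simulation does not gauge the calls made here. For single members, libraries were also permuted exactly between the groups (two-sided).

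Named genes were all 10 members, Zfp280c, the up to 3 tested genes of lowest p in each list, and the 5 genes most like each set; others were named after their values were seen. The members and lists were chosen with earlier results of these data known. Alternatives covered pseudocount, minimum mean, 3 rescalings, robust variance, the replicate number as a block, a HOX position covariate, other member sets and each library left out. Of these, the pairs of settings changed together and the pseudocount-free scale were added after the data were seen.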

Additional observations from a re-analysis of the deposited data

How the results depend on the processing

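Depth is unknown, and levels under 1 FPKM carry few decimals, which limits Vwf, Cdh5, Kdr, Tie1 and Flt4 most. The count of members that passed was 0 under every alternative except the removal of wild-type replicate 2, and ranged from 0 to 4 over the removals of 1 library (4 also with the minimum at 0.1). Over all genes the removals gave 0 to 1045 higher and 0 to 816 lower, and wild-type replicate 2 left out with the minimum at 0.1 gave 1150 higher and 884 lower. Why these counts rest on that library was not tested.

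Of 95 refitted fold changes of the 5 members in the main fit, 89 were negative and 8 passed. With the HOX position covariate 3 reversed, at either minimum: Ccl21a to 0.27, Lyve1 to 0.36 and Mmrn1 to 0.17. The blood difference of -0.26 moved to -0.57 with a pseudocount of 0.1, since a smaller pseudocount shrinks low genes less. It was -0.71 in log2 of each member over its own mean, with no pseudocount. Over removals the blood difference ran from -0.30 to -0.21 except for -0.32 without wild-type replicate 2. The lymphatic difference of -0.44 ran from -0.85 without wild-type replicate 2 to -0.21 without wild-type replicate 3. The blood minus lymphatic difference of 0.18 reversed to -0.0393 with a pseudocount of 0.1. It was -0.17 in log2 of each member over its own mean, with no pseudocount. Without the log, knock-out minus wild-type on that scale was -0.480 for blood and -0.517 for lymphatic genes, with no reversal. Over removals the blood minus lymphatic difference ran from -0.0329 to 0.53.

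The replicate numbers showed no steady pairing of the libraries: deviations of same-numbered libraries correlated at -0.453, -0.137 and 0.151 over 11366 genes. With 3 libraries in each group, and wild-type replicate 2 apart from the other wild-types, these values cannot settle whether the numbers mark pairs. With the replicate block 0 members passed, and 0 genes were higher and 0 lower.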

Other observations

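Notch4, Klhl4 and Svep1, genes of the vessel lists too low for the main fit, were named after their values were seen. Notch4, which encodes an endothelial Notch receptor, stood at 0.29, 0.25 and 0.27 FPKM in knock-out libraries and at 0.68, 0.35 and 1.22 FPKM in wild-type libraries. It lay lower in every knock-out than in every wild-type library, as did 8.67% of genes with a mean of at least 0.1 FPKM. Klhl4 stood at 0.19, 0.30 and 0.24 FPKM in knock-out libraries and at 0.40, 0.11 and 0.48 FPKM in wild-type libraries. Svep1, which encodes a matrix protein of the angiopoietin and TIE pathway, stood at 0.30, 0.18 and 0.29 FPKM in knock-out libraries and at 0.42, 0.20 and 0.44 FPKM in wild-type libraries. For Klhl4 and Svep1 wild-type replicates 1 and 3 were the 2 highest libraries. This held for the 4 lymphatic members too, and for every blood member but Plvap. Klhl4 was lowest in wild-type replicate 2, as the lymphatic members were, and Svep1 in knock-out replicate 2.

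Some genes ran the other way. Ackr1, a chemokine-binding receptor of venules, stood at 0.48, 0.39 and 0.47 FPKM in knock-out libraries and at 0.14, 0.24 and 0.24 FPKM in wild-type libraries. Itga9, an integrin of lymphatic valves, stood at 0.96, 0.87 and 0.76 FPKM in knock-out libraries and at 0.69, 0.74 and 0.66 FPKM in wild-type libraries. Ccbe1, which promotes processing of VEGFC, stood at 0.24, 0.16 and 0.15 FPKM in knock-out libraries and at 0.09, 0.10 and 0.04 FPKM in wild-type libraries. In these 3 genes every knock-out lay above every wild-type library, as did 7.14% of genes with a mean of at least 0.1 FPKM.

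Of 11361 other genes in the main fit, those whose log2 levels followed the lymphatic mean most closely over the 6 libraries were Wwp1, Mgea5, Cul1, Fmo4 and Mut (Pearson r 0.994 to 0.998). For the blood mean they were Cby1, Tpd52l2, Rita1, Ift80 and Sfrp1 (Pearson r 0.990 to 0.997). These are descriptions over 6 libraries of which wild-type replicates 1 and 3 stand apart, picked as the highest of all genes. Fmo4, for example, stood at 2.18, 2.26 and 2.63 FPKM in knock-out libraries and at 5.50, 1.72 and 6.01 FPKM in wild-type libraries, while Wwp1 stood between 12.02 and 12.15 FPKM in knock-out and between 11.24 and 14.02 FPKM in wild-type libraries.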
